A study of Homo sapiens with 4 samples.

Results

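The genes described here are 10 dual-specificity phosphatases that act on mitogen-activated protein kinases (MAPKs), DUSP1, DUSP2, DUSP4, DUSP5, DUSP6, DUSP7, DUSP8, DUSP10, DUSP14 and DUSP16. Probes were assigned to them through the RefSeq accession that the array annotation gives for each spot, which yielded 16 of 41000 non-control probes and 10 of 17718 genes with a symbol and a value. RNA came from OVSAYO, a human cell line from a clear cell carcinoma of the ovary, and was measured on 4 single-colour Agilent whole genome arrays, all on 1 slide. The study asked which genes respond to a hypoxia-mimicking agent in a manner that depends on the transcription factor Sp1. All cells were lipofected. NS-si cells, also called control cells here, received a negative control siRNA, and Sp1-si cells, also called Sp1-silenced cells, received a pool of siRNAs against Sp1. Both were then cultured for 40 h according to the labels, although a legend of the study gives a shorter time. NS-si → CoCl2 and Sp1-si → CoCl2 cells were the same 2 kinds of cells exposed to 0.5 mM CoCl2 for another 4 h, and the NS-si and Sp1-si cells had no CoCl2. By the same legend, cells without CoCl2 had a vehicle control for these 4 h. CoCl2 stabilises hypoxia-inducible factors without lowering oxygen. Each condition was 1 array of 1 cell line with 1 siRNA reagent, so no difference has a replicate check and no test was run.

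MAPKs are switched on when a MAPK kinase phosphorylates a threonine and a tyrosine of their activation loop. Dual-specificity phosphatases remove both phosphates and switch the kinase off. Many of them are transcribed in response to the pathway they inhibit, which makes their mRNA part of a negative feedback loop. DUSP1, DUSP2, DUSP4 and DUSP5 are nuclear and inducible, DUSP6 and DUSP7 are cytoplasmic and prefer the kinase ERK, and DUSP8, DUSP10 and DUSP16 act on the stress kinases JNK and p38. DUSP14 is a small atypical phosphatase that lacks the kinase-binding domain of the others.

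The values below are scaled signals, which are the processed spot intensities after each array was multiplied so that its 75th percentile was 1121, and log2 ratios between pairs of arrays. Signals of different probes are not compared with each other, because brightness also depends on the probe. A difference of at least 2-fold, a log2 ratio of at least 1 in size, is used as a descriptive limit. The spot SD is the median SD of log2 ratios among the 25 probes of nearest signal that have 10 spots on the array. It covers the array and not the cultures. All 16 probes of the phosphatases had 1 spot, all were well above background on all 4 arrays, and 0 of their spots were outliers or saturated.

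Over the whole arrays, 33081 to 34542 of 43376 non-control spots were well above background, and 14285 genes were on all 4 arrays. The SP1 probe with 10 spots had a log2 ratio of Sp1-si to NS-si cells of -3.77 without CoCl2 and -3.87 with it, so the targeted transcript was low on both arrays labelled Sp1-si. The clear cell and epithelial markers PAX8, NAPSA, KRT7, KRT8, KRT18, EPCAM, CDH1 and MUC1 were well above background on every array, although NAPSA and CDH1 were lower with Sp1-si, at log2 ratios of -2.33 and -1.55 without CoCl2. Of 11 markers of leukocytes, endothelium, stroma and other tumour types, PTPRC, PECAM1, CDH5, COL3A1 and WT1 were nowhere well above background, and 6 were on all 4 arrays. The summed scaled signal of the 11 was 1115 (NS-si), 653 (Sp1-si), 1382 (NS-si → CoCl2) and 789 (Sp1-si → CoCl2). CD68 made up this gap, since without it the sums were 409, 400, 481 and 439. CD68, a lysosomal protein of macrophages that other cells also make, was thus lower with Sp1-si in this cell line. Without CoCl2, 5 of 10 phosphatases were lower with Sp1-si and 5 were higher, beside 49.2% of all genes higher. A link to CD68 was not tested. Without scaling, the log2 ratio under CoCl2 between Sp1-si and NS-si cells moved by 0.40 for every probe, the CoCl2 ratio by -0.23 in control and by 0.23 in Sp1-silenced cells, and the difference between these by 0.45. Values under these sizes depend on the scaling.

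The promoters of 4 phosphatases are shown because their transcripts had distinct patterns over the 4 arrays. DUSP1 had one of the largest CoCl2 ratios, and DUSP14 had the lowest Sp1-si to NS-si ratio. DUSP6 and DUSP8 had, by their brightest probes, the most alike values of any pair. Each sequence is the 250 bases before the start site of the RefSeq entry in GRCh38.p14, written 5′ to 3′ in the direction of transcription. Capitals mark the GC box core bound by Sp1 and its relatives (GGGCGG, or CCGCCC on the other strand) and the core of the hypoxia response element (HRE, ACGTG or GCGTG, or CACGT or CACGC on the other strand).
DUSP1 promoter, chr5:172771196-172771445, minus strand: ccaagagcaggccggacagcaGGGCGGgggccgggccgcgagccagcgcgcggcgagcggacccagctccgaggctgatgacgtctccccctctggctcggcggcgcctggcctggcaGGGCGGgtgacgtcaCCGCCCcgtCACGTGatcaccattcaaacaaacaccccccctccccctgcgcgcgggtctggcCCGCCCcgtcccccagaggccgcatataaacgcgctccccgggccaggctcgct
DUSP14 promoter, chr17:37489641-37489890, plus strand: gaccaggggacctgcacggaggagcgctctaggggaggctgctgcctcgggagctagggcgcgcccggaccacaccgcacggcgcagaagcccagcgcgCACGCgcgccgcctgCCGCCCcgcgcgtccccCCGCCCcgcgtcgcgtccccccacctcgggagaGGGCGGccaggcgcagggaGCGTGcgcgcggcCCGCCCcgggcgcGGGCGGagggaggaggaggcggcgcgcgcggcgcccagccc
DUSP6 promoter, chr12:89352502-89352751, minus strand: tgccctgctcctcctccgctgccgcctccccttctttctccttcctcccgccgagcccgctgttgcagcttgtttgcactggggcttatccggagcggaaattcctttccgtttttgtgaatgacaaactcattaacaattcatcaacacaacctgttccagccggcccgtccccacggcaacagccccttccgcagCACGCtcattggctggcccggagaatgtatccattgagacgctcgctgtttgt
DUSP8 promoter, chr11:1572272-1572521, minus strand: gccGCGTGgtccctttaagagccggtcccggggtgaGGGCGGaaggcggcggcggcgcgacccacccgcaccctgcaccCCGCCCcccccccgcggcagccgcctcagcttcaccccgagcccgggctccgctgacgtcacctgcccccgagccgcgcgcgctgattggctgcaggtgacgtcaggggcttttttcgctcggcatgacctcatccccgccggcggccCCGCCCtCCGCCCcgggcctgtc

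Entries were found for 8 of the 10 phosphatases. The GC box core occurred 4 times in the DUSP1 window, 5 times in that of DUSP14, 4 times in that of DUSP8 and 0 times in that of DUSP6. The remaining windows held 3 in DUSP2, 2 in DUSP7, 3 at the first DUSP10 start site, 1 at the second and 1 in DUSP16. At least 1 was present in 7 of the 8 genes, and in 42.6% of all 34788 distinct windows of this length, while 4.13% of all windows held at least 5. The HRE core was found in 6 of the 8 genes and in 43.1% of all windows. DUSP1, DUSP2 and DUSP14 each held 2 matches, and 19.3% of all windows held at least 2. In DUSP2, and in DUSP1 where it is in capitals, the 2 matches are both strands of 1 palindrome. The cAMP response element TGACGTCA, which shares its ACGT with the HRE core, occurred once in DUSP1, directly beside a GC box, and 2 times in DUSP8, against 1.64% of all windows with a match. A match is a description of the letters and was not tested for binding.

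The largest CoCl2 ratios, those of treated to untreated cells, were found for DUSP1 and DUSP5 in both kinds of cells. DUSP1, an immediate early gene whose product acts on ERK, JNK and p38, had a scaled signal of 951 (NS-si), 681 (Sp1-si), 3748 (NS-si → CoCl2) and 2582 (Sp1-si → CoCl2). Both CoCl2 arrays were far above both untreated ones, and in each pair the Sp1-si array was the lower. The CoCl2 ratio was 3.94-fold in control cells, a log2 ratio of 1.98 with a spot SD of 0.035, and 3.79-fold in Sp1-silenced cells, a log2 ratio of 1.92 with a spot SD of 0.029. Only 0.78% of the genes compared in control cells and 0.716% of those in Sp1-silenced cells had a higher CoCl2 ratio. The log2 ratio of Sp1-si to NS-si cells was -0.48 without CoCl2 and -0.54 under CoCl2. DUSP1 was therefore lower with Sp1-si by a like amount in both states. The CoCl2 ratios differed by -0.06, within 2 spot SDs, and without scaling that difference was 0.40 and the ratio under CoCl2 was -0.14.

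DUSP5, a nuclear phosphatase specific for ERK, had a scaled signal of 1322 (NS-si), 838 (Sp1-si), 5646 (NS-si → CoCl2) and 5338 (Sp1-si → CoCl2). The array order was that of DUSP1, but the 2 CoCl2 arrays lay close together while the untreated ones did not. Its CoCl2 ratio was 4.27-fold in control cells, a log2 ratio of 2.09, and 6.37-fold in Sp1-silenced cells, a log2 ratio of 2.67, each with a spot SD of 0.031. A higher ratio was found for 0.615% of genes in control cells and 0.259% in Sp1-silenced cells. Without CoCl2 the log2 ratio of Sp1-si to NS-si cells was -0.66, and under CoCl2 it was -0.08, which turned to 0.32 without scaling. The CoCl2 ratio was thus larger in Sp1-silenced cells by 0.58 with a spot SD of 0.044, the largest such difference in this direction among the 10 genes by their brightest probes, and this became 1.03 without scaling.

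Neither of the other 2 nuclear inducible phosphatases passed the 2-fold limit by its brightest probe. DUSP4, which acts on ERK and JNK, had scaled signals of 831 (NS-si), 732 (Sp1-si), 639 (NS-si → CoCl2) and 682 (Sp1-si → CoCl2). It was the only member with a log2 CoCl2 ratio below 0 in control cells, at -0.38 with a spot SD of 0.039. In Sp1-si cells its CoCl2 ratio was -0.10, which turned to 0.13 without scaling. DUSP2, known from activated leukocytes, had scaled signals of 93.3, 95.6, 103 and 125 in NS-si, Sp1-si, NS-si → CoCl2 and Sp1-si → CoCl2 cells by its brighter probe, A_23_P108842. Its log2 CoCl2 ratios were 0.14 in control cells, which was -0.08 without scaling, and 0.39 with Sp1 silenced. A second DUSP2 probe, A_24_P37409, was dim, with 12.4, 16.8, 27.2 and 23.0 on the same arrays, and gave 1.13 in control and 0.45 in Sp1-silenced cells with spot SDs of 0.20 and 0.22. The probes disagreed on which kind of cells had the larger CoCl2 ratio.

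**Figure D1:**
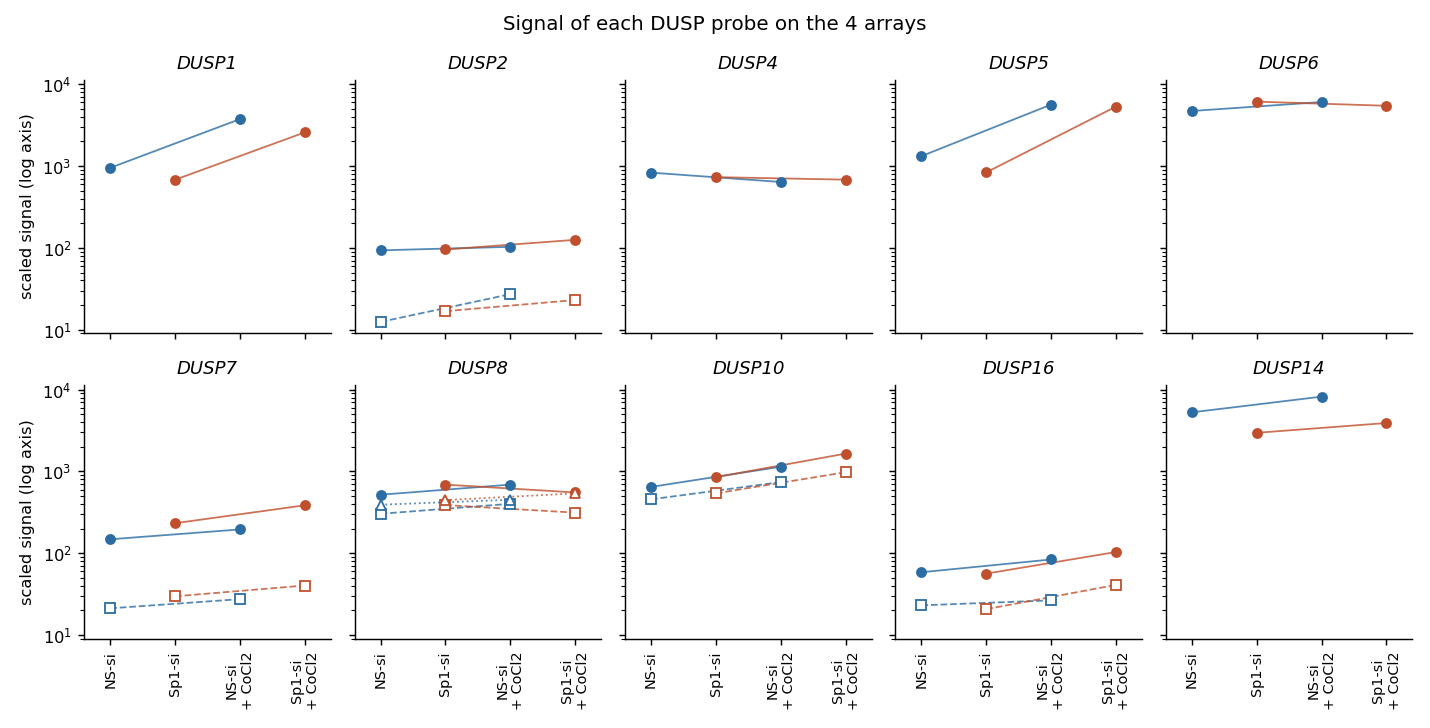
Scaled signal (log axis) of each probe of the 10 phosphatases on the 4 arrays, 1 array per condition. Blue points and lines are NS-si cells, red ones Sp1-si cells, lines join untreated to CoCl2-treated cells, and filled points are the brightest probe of a gene. DUSP1 and DUSP5 climb steeply in both kinds of cells, the 2 DUSP14 lines run apart, and the DUSP6 lines cross.

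The cytoplasmic ERK phosphatases differed from each other in how their signal varied. DUSP6, a negative feedback regulator of ERK, had scaled signals of 4709 (NS-si), 6125 (Sp1-si), 6060 (NS-si → CoCl2) and 5454 (Sp1-si → CoCl2). The lowest value was that of untreated NS-si cells and the other 3 lay close together. Its log2 CoCl2 ratio was 0.36 in control cells with a spot SD of 0.029 and -0.17 in Sp1-silenced cells with a spot SD of 0.028. These opposite signs depended on the scaling, since without it the ratios were 0.14 and 0.06. The DUSP6 ratio of Sp1-si to NS-si cells was 0.38 without CoCl2 and -0.15 under it, the latter 0.25 without scaling.

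DUSP7, a close relative of DUSP6, had scaled signals of 148 (NS-si), 233 (Sp1-si), 195 (NS-si → CoCl2) and 386 (Sp1-si → CoCl2) by its brighter probe, A_23_P155425. Both Sp1-si arrays were above both NS-si arrays. The log2 ratio of Sp1-si to NS-si cells was 0.65 with a spot SD of 0.061 without CoCl2 and 0.98 with a spot SD of 0.055 under CoCl2, the highest of the 10 genes in both states. The value under CoCl2 lay just below the 2-fold limit. It passed the limit at 1.04 with quantile normalization and on the scale of the authors' table. With median scaling it was 1.09, and without scaling 1.38. It was lower, at 0.75, with the normexp correction described below and, at 0.77, as the mean over its probes. DUSP7 was also somewhat higher with CoCl2, with log2 ratios of 0.40 in control and 0.73 in Sp1-silenced cells. The dimmer probe, A_24_P51855, had 21.2, 29.7, 27.5 and 40.3 on the arrays in the same order, and Sp1-si to NS-si ratios of 0.49 and 0.55.

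The 3 phosphatases of JNK and p38 did not share a pattern. DUSP10 had scaled signals of 646 (NS-si), 851 (Sp1-si), 1141 (NS-si → CoCl2) and 1651 (Sp1-si → CoCl2) by probe A_23_P51856. Its CoCl2 ratio was 0.82 on the log2 scale in control cells and 0.96 in Sp1-silenced cells, with spot SDs of 0.033 and 0.030. By the brightest probes it was the third highest of the 10 genes in both. The ratio in Sp1-silenced cells was 1.18 without scaling. As the mean over probes it was 0.91, below the 0.93 of DUSP16. Probe A_24_P182494 gave 0.70 and 0.86. Signals were higher in Sp1-silenced than in control cells by 0.40 without and 0.53 under CoCl2 for the first probe, and by 0.24 and 0.40 for the second. Both DUSP10 probes therefore had the same order of the 4 arrays, from NS-si up to Sp1-si → CoCl2.

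DUSP16, which shuttles between nucleus and cytoplasm and prefers JNK and p38, had scaled signals of 58.6 (NS-si), 56.4 (Sp1-si), 83.9 (NS-si → CoCl2) and 104 (Sp1-si → CoCl2) by its brighter probe, A_24_P189739. The untreated pair was alike and the CoCl2-treated pair was above it. The log2 CoCl2 ratio was 0.52 in control and 0.88 in Sp1-silenced cells, with spot SDs of 0.099 and 0.086, and the latter was 1.10 without scaling. The dimmer DUSP16 probe, A_24_P73264, gave 0.20 and 0.98, with spot SDs of 0.17 and 0.15.

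DUSP8 was measured by 3 probes, and these did not behave alike. A_23_P390528 had scaled signals of 519 (NS-si), 690 (Sp1-si), 690 (NS-si → CoCl2) and 553 (Sp1-si → CoCl2), and A_24_P322867 had 304, 388, 402 and 314 on the same arrays. For both, CoCl2-treated cells were above untreated ones in control cells and below them in Sp1-silenced cells. The log2 CoCl2 ratios were 0.41 and -0.32 for the first probe and 0.40 and -0.31 for the second, with spot SDs of 0.038 to 0.052. Probe A_32_P98298, in contrast, had 392, 447, 450 and 538, and its CoCl2 ratios were 0.20 and 0.27. Its highest array was Sp1-si → CoCl2, where the other 2 probes were below their NS-si → CoCl2 values. The sign of the first probe held under every setting tried, at 0.19 and -0.09 without scaling, but the Sp1-si to NS-si ratio under CoCl2, -0.32, turned to 0.08 without scaling.

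**Figure D2:**
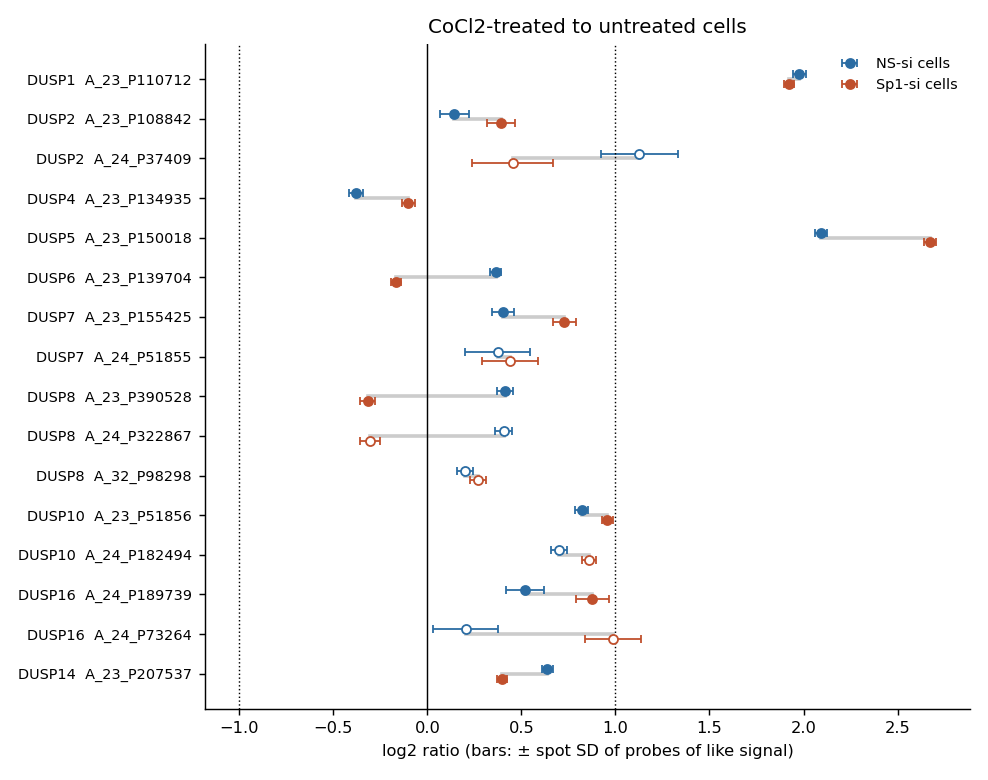
Log2 ratio of CoCl2-treated to untreated cells for each of the 16 probes (x axis), in control cells (blue) and Sp1-si cells (red), with bars of ± the spot SD of probes of like signal. Filled points are the brightest probe of a gene, open points its other probes, and dotted lines mark 2-fold. DUSP1 and DUSP5 stand beyond 2-fold in both kinds of cells, and DUSP6 and 2 of 3 DUSP8 probes have opposite signs.

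DUSP14 was the member with the lowest ratio of Sp1-si to NS-si cells. Its scaled signal was 5272 (NS-si), 2965 (Sp1-si), 8204 (NS-si → CoCl2) and 3904 (Sp1-si → CoCl2). Both Sp1-si arrays were below both NS-si arrays, the reverse of DUSP7. Sp1-si cells were 1.78-fold below NS-si cells without CoCl2, a log2 ratio of -0.83 with a spot SD of 0.026, and 2.10-fold below under CoCl2, a log2 ratio of -1.07 with a spot SD of 0.023. The second value no longer reached the 2-fold limit with median scaling, at -0.96, or without scaling, at -0.67. A higher ratio of Sp1-si to NS-si cells was found for 91.4% of genes without CoCl2 and 92.9% under CoCl2. CoCl2 ratios of DUSP14 were 0.64 in control and 0.40 in Sp1-silenced cells, and their difference of -0.24 turned to 0.21 without scaling.

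**Figure D3:**
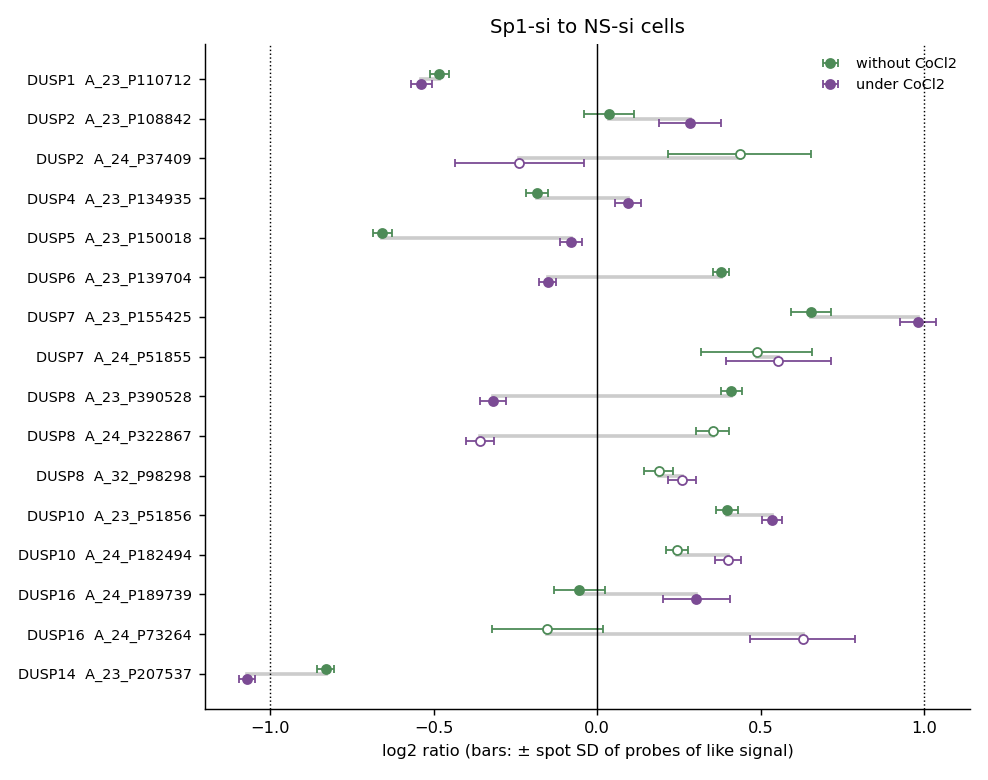
Log2 ratio of Sp1-si to NS-si cells for each of the 16 probes (x axis), without CoCl2 (green) and under CoCl2 (purple), with bars of ± the spot SD of probes of like signal. Filled points are the brightest probe of a gene and dotted lines mark 2-fold. DUSP14 lies lowest and DUSP7 highest in both states, while DUSP5, DUSP6, 2 of 3 DUSP8 probes and the dimmer probes of DUSP2 and DUSP16 shift by more than 0.5 between the states.

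Taking the brightest probe of each gene, 2 of 10 phosphatases, DUSP1 and DUSP5, were at least 2-fold higher with CoCl2 in control cells, where 4.22% of 15125 genes were at least 2-fold higher and 3.54% at least 2-fold lower. The same 2 of 10 passed in Sp1-silenced cells, where the shares of all genes were 3.66% higher and 4.00% lower. Without scaling, DUSP10 and DUSP16 also passed there, at 1.18 and 1.10, which made 4 of 10, where 6.33% of all genes were higher. In NS-si cells 9 of 10 ratios were above 0 and in Sp1-silenced cells 7 of 10, against 50.5% and 48.5% of all genes. Without scaling DUSP2 went below 0 in control cells, at -0.08, and DUSP4 and DUSP6 went above it in Sp1-silenced cells, at 0.13 and 0.06. The median log2 CoCl2 ratio of the phosphatases was 0.46 in control cells and 0.56 in Sp1-silenced cells, beside 0.00 and -0.01 for all genes. Unscaled medians were 0.24 and 0.79, beside -0.22 and 0.21 for all genes. In both comparisons 0 of 10 were at least 2-fold lower, which is near the shares of all genes, 3.54% and 4.00%. The comparisons have no array in common, but all arrays shared a cell line and a slide, so neither replicates the other.

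Between Sp1-si and NS-si cells the phosphatases were spread to both sides. Without CoCl2, 0 of 10 were at least 2-fold higher or lower, where 6.22% of all genes were higher and 6.17% lower. Of the ratios, 5 of 10 were above 0, beside 49.2% of all genes. Under CoCl2, 0 of 10 were higher and 1 of 10, DUSP14, was lower, where the shares of all genes were 7.15% and 8.08%. The count of 1 is near that background. Medians were -0.01 without and 0.01 under CoCl2, beside -0.01 and -0.03 for all genes. The difference of the CoCl2 ratios was beyond 2-fold for 0 of 10 members in either direction, where 0.973% of 14285 genes had a larger ratio in Sp1-silenced cells by at least 2-fold and 2.88% a smaller one. It ranged from -0.73 for DUSP8 to 0.58 for DUSP5.

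**Figure D4:**
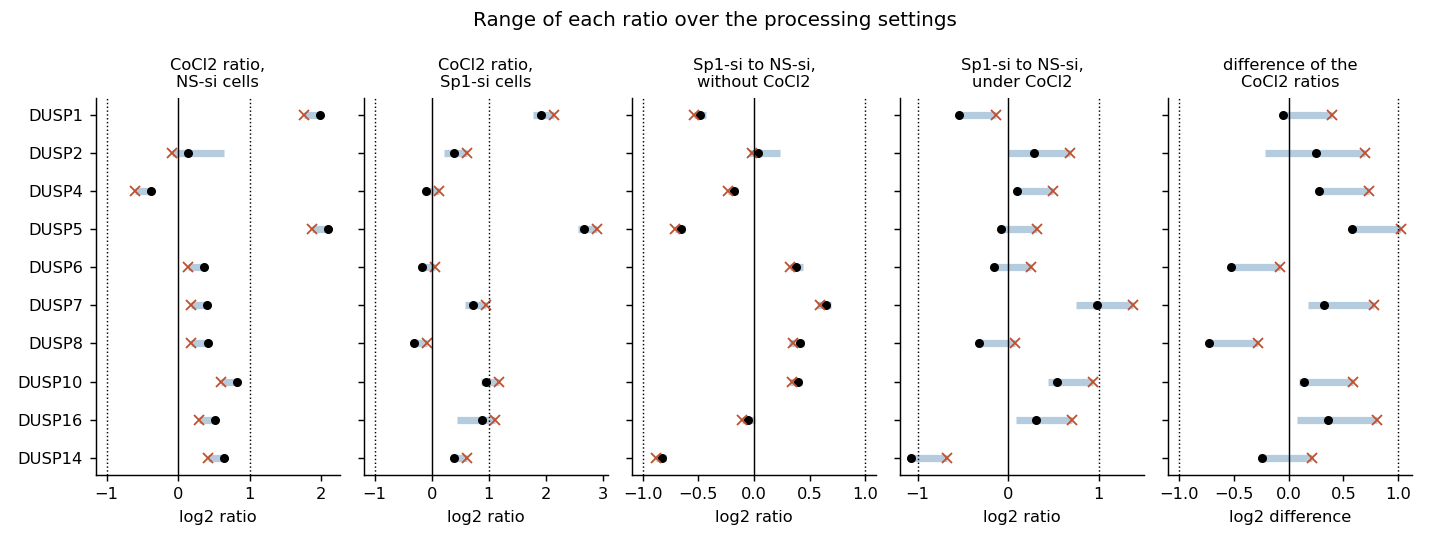
Log2 ratios of the 10 phosphatases in the 5 comparisons (x axes) under the processing as described (black points), without scaling (red crosses) and over all settings tried (blue bars from the lowest to the highest value). Dotted lines mark 2-fold. From left to right, 9, 8, 8, 6 and 7 of 10 genes keep their sign over all settings, and the bars of DUSP1 and DUSP5 stay beyond 2-fold in both CoCl2 panels.

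The signals of pathway genes around the phosphatases were examined next. The shares of all genes beside their CoCl2 counts are again 4.22% higher and 3.54% lower in control cells. In Sp1-silenced cells they are 3.66% and 4.00%. In lists this short, a count of 1 does not set a list apart from all genes. Of 13 other dual-specificity phosphatases with a probe, 12 had a CoCl2 ratio in control cells and 11 in Sp1-silenced cells, the rest being below background. Of these, 0 were at least 2-fold higher or lower with CoCl2 in either kind of cells, and the median ratios were -0.22 and 0.01. DUSP19, which binds kinases of the JNK pathway, was lower in Sp1-silenced cells without CoCl2, at 35.2 beside 83.3 in control cells, a log2 ratio of -1.24. DUSP15 had 2321 in NS-si → CoCl2 and 1131 in Sp1-si → CoCl2 cells, a log2 ratio of -1.04 that was -0.64 without scaling. Without and under CoCl2, the Sp1-si to NS-si ratios were -0.70 and -0.60 for STYXL1, a pseudophosphatase, and DUSP9, a cytoplasmic ERK phosphatase, had -0.15 and -0.62.

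Among 11 MAPKs with a probe, MAPK7, which encodes ERK5, was the only one at least 2-fold higher with CoCl2. Its scaled signal was 1155 (NS-si), 1744 (Sp1-si), 5029 (NS-si → CoCl2) and 7193 (Sp1-si → CoCl2), with log2 CoCl2 ratios of 2.12 and 2.04. MAPK3, which encodes ERK1, was instead higher with Sp1-si. It had 117, 399, 115 and 586 on the 4 arrays, and the log2 ratio of Sp1-si to NS-si cells was 1.77 without and 2.35 under CoCl2. MAPK14, which encodes p38 alpha, had CoCl2 ratios of -0.77 and -0.42, and MAPK12 had Sp1-si to NS-si ratios of -0.54 and -0.65. The medians of the 11 were 0.19 and 0.25 for CoCl2.

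Of 7 MAPK kinases, 1 was higher and 1 lower with CoCl2 by at least 2-fold in each kind of cells. Counts this small do not set the list apart from all genes. MAP2K1, a kinase that activates ERK, had CoCl2 ratios of 1.18 in control and 1.25 in Sp1-silenced cells. MAP2K6, an activator of p38, had -1.20 and -1.14, with scaled signals of 383 and 207 untreated and 167 and 93.8 with CoCl2. Without scaling, MAP2K1 was at 0.96 in control cells and MAP2K6 at -0.92 in Sp1-silenced cells, so each then passed the limit in 1 kind of cells only. MAP2K2 had Sp1-si to NS-si ratios of 0.55 and 0.58, and MAP2K7, a JNK activator with dim signals, had -0.17 and -0.74.

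ERK feedback and target genes were divided. Of 19 with a probe, 5 were higher and 1 lower with CoCl2 by at least 2-fold in control cells, and 4 were higher and 2 lower in Sp1-silenced cells, with medians of 0.29 and 0.32. Without scaling, 2 were lower in control cells and 7 higher in Sp1-silenced cells, beside 6.23% and 6.33% of all genes. FOS, an immediate early transcription factor gene, had 290 (NS-si), 305 (Sp1-si), 891 (NS-si → CoCl2) and 1884 (Sp1-si → CoCl2). HBEGF, an EGF receptor ligand, had CoCl2 ratios of 1.78 and 1.74, and EPHA4 had -1.59 and -2.92. ETV1, an ERK-regulated transcription factor, had CoCl2 ratios of -0.28 and -0.41 but Sp1-si to NS-si ratios of 2.33 and 2.21.

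Target genes of JNK and p38 were mostly higher with CoCl2. Of 13, 8 were at least 2-fold higher and 0 lower in control cells, with a median of 1.65, and 7 were higher and 1 lower in Sp1-silenced cells, with a median of 1.01. ATF3, a stress-induced repressor, had CoCl2 ratios of 2.68 and 2.32, GADD45B had 1.99 and 1.56, and ZFP36, which destabilises cytokine mRNA, had 1.58 and 2.26. JUN had 5045 (NS-si), 6390 (Sp1-si), 21568 (NS-si → CoCl2) and 5549 (Sp1-si → CoCl2). Its CoCl2 ratio was 2.10 in control and -0.20 in Sp1-silenced cells, a difference of -2.30 that was -1.85 without scaling, where the ratio in Sp1-silenced cells was 0.024. The CoCl2 ratio of DUSP1, in contrast, differed between the 2 kinds of cells by -0.06, which was 0.40 without scaling. HRE-dependent genes were included as a check of CoCl2, and 16 of 17 in control and 15 of 16 in Sp1-silenced cells were at least 2-fold higher, with medians of 1.81 and 2.48. The first count fell to 14 without scaling. In Sp1-silenced cells the largest ratios among them were 4.25 for PFKFB4, 3.63 for ANKRD37, 3.58 for ADM and 2.89 for PDK1. In control cells the same genes had 3.77, 2.40, 2.77 and 1.81, and the last of these lay at the median of the list.

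**Figure D5:**
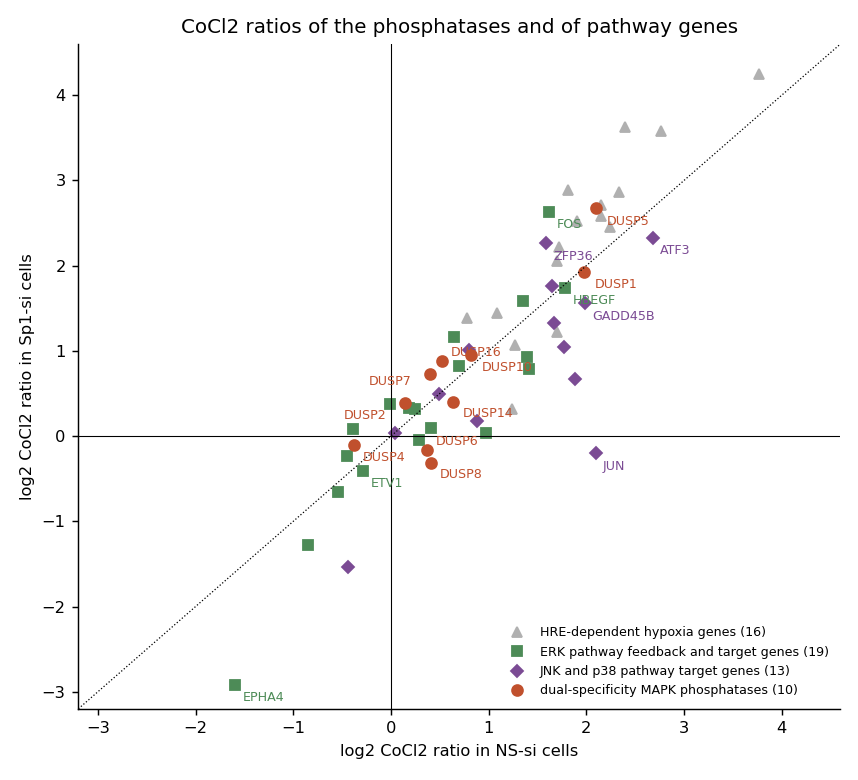
Log2 CoCl2 ratio in control cells (x axis) and in Sp1-silenced cells (y axis) for the 10 phosphatases (red circles), 19 ERK feedback and target genes (green squares), 13 JNK and p38 target genes (purple diamonds) and 16 HRE-dependent genes (grey triangles), 1 point per gene. The dotted line marks equal ratios. DUSP1 lies near the line and DUSP5 0.58 above it, in a region that holds genes of all 3 lists, and JUN lies far below the line.

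The genes whose values over the 4 arrays were most like those of DUSP5, the member with the widest range of log2 signal, were found among 14284 genes by the Euclidean distance between log2 signals centred on the mean of each gene. The nearest were EFNA3, an ephrin ligand, at a distance of 0.185, PDK1, a kinase that restrains pyruvate dehydrogenase and one of the HRE-dependent genes above, at 0.273, TTI1 at 0.316, DUSP5P1 at 0.329 and STYK1 at 0.350. EFNA3 had scaled signals of 51.8, 30.8, 225 and 181, and DUSP5P1 had 777, 615, 3456 and 2863, in NS-si, Sp1-si, NS-si → CoCl2 and Sp1-si → CoCl2 cells. DUSP5P1 is a transcribed pseudogene of DUSP5, so either probe may also have bound RNA of the other gene, which was not tested. The pattern of DUSP5 over these arrays is therefore uncertain to that extent. Among the phosphatases, by their brightest probes, DUSP6 and DUSP8 were the most alike, at 0.131, followed by DUSP10 and DUSP16 at 0.406. DUSP6 and DUSP8 varied little, over log2 ranges of 0.38 and 0.41, and DUSP8 probe A_32_P98298 had another order of the arrays. The distance between DUSP1 and DUSP5 was 0.553. With only 4 arrays, each shared by all genes, these distances are a description.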

How the data were processed

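RNA of 4 conditions was measured on 1 array each. The authors deposited the intensities as the scanner software (Agilent Feature Extraction 10.5.1.1) wrote them, with background subtracted and without normalization between arrays. Their value table holds the same processed signal multiplied by 1 constant per array, 1.25 to 1.58. Here, log2 intensities minus the 75th percentile of the non-control spots of the array were used, with outlier spots removed and a probe's spots averaged. A probe counted as above background where at least 50% of these spots did, and a ratio with 1 dim side is a bound. Accessions gave symbols to 28463 of 29296 spots. The brightest probe, by mean log2 signal, stands for a gene.

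The 10 members and all gene lists were chosen with earlier results of these data known. Named are the members, SP1, up to 4 genes a pathway list with the largest size of any of the 4 ratios among genes above background on all 4 arrays, and the 5 genes nearest to the member of widest range. Cell type markers were named after their values were seen, by whether they were above background. With 1 array per condition no p-value was computed. The number of arrays limits the precision. Over 13 alternatives, scaling, the value table, a normexp correction with an offset of 50 on the median spot signals, floors, outliers, several probes, thresholds and filters were varied. Counting was tested on simulated data. Python 3.11.15, numpy 2.4.6, pandas 2.3.3, matplotlib 3.10.9, R 4.3.3 and limma 3.58.1 were used. Promoter windows came from RefSeq (GRCh38.p14). The array annotation is on an older build, so no probe coordinates are given. Some marker genes of the lists are not reported here.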

Additional observations from a re-analysis of the deposited data

Results flagged for a closer look

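DUSP6 and 2 of the 3 DUSP8 probes had CoCl2 ratios of opposite sign in NS-si and Sp1-si cells, and this difference between the 2 kinds of cells was not tested. The log2 CoCl2 ratio in Sp1-si cells minus that in NS-si cells was -0.53 for DUSP6, -0.73 for DUSP8 probe A_23_P390528 and -0.71 for DUSP8 probe A_24_P322867. Without scaling, the DUSP6 ratios were both above 0 and the difference was -0.08, while the brightest DUSP8 probe kept opposite signs with a difference of -0.28. The third DUSP8 probe, A_32_P98298, had CoCl2 ratios of 0.20 and 0.27. With scaling, 90.5% of all genes had a higher difference than DUSP6. The shares were 94.2% for A_23_P390528 and 93.9% for A_24_P322867. DUSP15, which is not one of the members, had CoCl2 ratios of 0.59 in control and -0.33 in Sp1-silenced cells. Its difference was -0.93. Of the 11 non-member dual-specificity phosphatases with such a value, DUSP15 included, 8 were above 0, beside 51.4% of all genes. Without scaling the median difference of these 11 was 0.56, beside 0.47 for all genes.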

How the results depend on the processing

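Some alternatives could not move any member: the floor on dim signals, outlier spots kept, and a stricter or absent filter on dim probes. All 16 member probes were above background on every array, and 0 of their spots were outliers. Member counts under these settings were thus fixed beforehand and say nothing about robustness. Over 13 alternatives, these included, 170 of 195 counts of members stayed within 1.5 times, and 0 members beyond 2-fold changed direction. The sign of the log2 value was kept under all of them by 9 of 10 members for the CoCl2 ratio in NS-si cells, 8 for that in Sp1-si cells, 8 and 6 for the Sp1-si to NS-si ratio without and under CoCl2, and 7 for the difference of the CoCl2 ratios. Without scaling, 4 members were at least 2-fold higher with CoCl2 in Sp1-si cells (DUSP1, DUSP5, DUSP10 and DUSP16), beside 6.33% of all genes. Between Sp1-si and NS-si cells under CoCl2, 1 was then higher (DUSP7) and 0 lower, beside 16.1% and 3.78%. A larger CoCl2 ratio in Sp1-si cells was found for 1 (DUSP5), beside 6.41%. These counts of 1 are near those shares. Between Sp1-si and NS-si cells under CoCl2, quantile normalization and the authors' table each gave 2 members, 1 of them higher. Median scaling gave 1 higher and 0 lower. The shares of all genes higher and lower were 8.4% and 6.8% with quantile normalization and 8.2% and 7.2% with the authors' table. With median scaling they were 9.1% and 6.6%. Each count of 1 is near these shares. At a limit of 1.5-fold, 4 members were higher with CoCl2 in control and 5 in Sp1-silenced cells, beside 11.2% and 10.4% of all genes. At this limit 3 differed between Sp1-si and NS-si cells without CoCl2 (1 higher and 2 lower), where 13.9% of all genes were higher and 14.1% lower, a count near that background. Under CoCl2 there were 2 (1 higher), beside 16.6% and 18.3%, and 1 had a smaller CoCl2 ratio in Sp1-si cells, beside 8.13%. At 3-fold, 0 were lower with Sp1-si under CoCl2, beside 2.63% of all genes.

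Over all genes, no scaling changed the counts of higher and lower genes from 638 and 535 to 414 and 943 for CoCl2 in NS-si cells, from 552 and 603 to 955 and 353 in Sp1-si cells, from 1078 and 1217 to 2422 and 570 for Sp1-si to NS-si under CoCl2, and from 139 and 412 to 915 and 76 for the difference. The share of calls that were higher thereby went from 54.4% to 30.5%, from 47.8% to 73.0%, from 47.0% to 80.9% and from 25.2% to 92.3%. Median scaling gave shares of 59.8% for CoCl2 in Sp1-si cells, 58.1% for Sp1-si to NS-si under CoCl2 and 40.9% for the difference, with 213 larger ratios, and quantile normalization gave 37.6% for the difference. The normexp correction, which compresses dim signals by its offset, gave 366 and 212, 319 and 328, 557 and 513 (from 945 and 938 without CoCl2), 639 and 805, and 42 and 252, the last a share of 14.3%. Without the filter on dim probes, 979 genes were higher with CoCl2 in NS-si cells, and 498 and 1010 differed in CoCl2 ratio. At 3-fold, counts over the 5 comparisons and both directions ran from 30 to 397.

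No paired analysis was possible because each group is 1 array. Spot SDs of the member probes ran from 0.023 to 0.32, largest for the dim probes of DUSP2, DUSP7 and DUSP16, and do not cover the spread between cultures.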

Other observations

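A few further genes of the ERK pathway, chosen after their values were seen, are given as values beside the phosphatases. SPRY1, SPRY2 and SPRY4, which like DUSP6 are feedback inhibitors of ERK signalling, had log2 CoCl2 ratios of -0.45, -0.54 and 0.41 in NS-si cells, and -0.23, -0.66 and 0.09 with Sp1 silenced. PHLDA1, another gene induced by ERK, had 0.97 in control and 0.03 in Sp1-silenced cells, with scaled signals of 7815 in NS-si cells and 14166 to 15317 on the other 3 arrays. EGR1, an immediate early gene like FOS, had -0.85 and -1.28, whereas FOS had 1.62 and 2.63.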
